A study of Mus musculus with 6 samples.

Results

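Genes of fatty acid and cholesterol synthesis were examined in lungs taken whole from mouse embryos at E14.5, during branching of the lung, with 3 mutant and 3 control embryos on 1 array each. The list held 43 genes chosen by symbol, with earlier results of these data known. Of these genes, 20 belong to the fatty acid branch, 18 to the sterol branch and 5 to the regulatory system that controls them. A gene was represented by the array feature that carried its symbol alone, and by the brightest one on average where there were several. This gave 40 measured members among 19946 genes tested, with 18 in the fatty acid branch, 17 in the sterol branch and 5 regulators. The only listed feature of Acsl3 is shared with another gene, and Acsl1 and Acat2 had no named feature, so these 3 genes were not analysed here.

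The mutants carried Shh-Cre, a Cre recombinase driven by the Shh gene and active in the lung endoderm, together with floxed alleles of Foxp1, Foxp2 and Foxp4, which encode forkhead transcription factors. Their genotype label writes Foxp1flox/flox in the place of Foxp2 as well, whereas the series title names Foxp1/2/4, and the design text uses the suffix DKO. The controls carried Shh-Cre without floxed alleles named in their labels. All embryos were on a mixed C57BL/6 and 129X1 background. Whole lung holds mesenchyme, vessels and blood cells in which Shh-Cre is not expected to act, so each value is an average over these cells. Nkx2-1, the homeobox gene of lung endoderm, was present in every sample and read 8.98, 9.32 and 9.44 in mutants and 10.12, 10.16 and 10.09 in controls on the log2 scale. It was itself lower in mutants, by 1.84-fold (limma adjusted p = 0.0026).

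Fatty acids are built from acetyl-CoA, which Acly makes in the cytosol, by the carboxylases Acaca and Acacb and the synthase Fasn, and are then lengthened by elongases, given double bonds by desaturases and activated by acyl-CoA synthetases. Cholesterol is made from the same acetyl-CoA through mevalonate, isoprenoid units, squalene and lanosterol. Both branches are controlled by the membrane-bound factors SREBP1 and SREBP2, encoded by Srebf1 and Srebf2, which Scap carries to the Golgi when sterols are low and Insig1 and Insig2 hold back when sterols are high. In the lung, lipid synthesis is best known for supplying surfactant phospholipid in alveolar type II cells late in gestation.

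Values are the deposited log2 array values, whose median per array lay between 6.70 and 6.79. The lowest correlation over all genes was 0.994 within mutants and 0.998 within controls. Foxp2 and Foxp4 were lower in mutants, at -0.95 and -0.64 (limma adjusted p = 4.75e-05 and 0.00591), while Foxp1 was at -0.31 and did not pass (adjusted p = 0.0661). Mutant 1 stood apart in heart muscle genes, whose summed linear level was 10664 in mutant 1, 2451 and 2331 in mutants 2 and 3, and 4340 to 4494 in controls. The gene Actc1 made up a large part of the control sum, at 10.98, 11.08 and 10.88 on the log2 scale.

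Of the 40 measured members, 7 rose in mutant lungs, 4 fell and 29 did not pass the threshold, a limma adjusted p of 0.05 (Benjamini-Hochberg, over the 19946 genes). Over all genes, 7.66% passed, 3.84% higher and 3.83% lower in mutants. The sterol branch held 4 rises (Hmgcs1, Fdps, Lss and Msmo1) and 0 falls among 17 genes. The fatty acid branch held 3 rises (Elovl4, Elovl6 and Scd1) and 4 falls (Elovl7, Fads3, Me1 and Acsl5) among 18 genes. An unadjusted p under 0.05 in limma was reached by 10 of the 17 sterol genes, with Nsdhl the only lower one, and by 8 of the 18 fatty acid genes, against 19.8% of all genes. In whole lung, fewer cells that express a gene and less of its RNA per cell cannot be told apart.

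The branches also differed in their centre. The median log2 difference, mutant minus control, was 0.20 in the sterol branch and 0.05 in the fatty acid branch, against -0.01 over all genes. The mutant mean lay above the control mean in 14 of 17 sterol genes and 11 of 18 fatty acid genes, and in 48% of all genes. The groups did not overlap in 23 of the 40 members, against 25.9% of all genes. All 3 mutants lay above all 3 controls in 9 sterol genes and 6 fatty acid genes, against 13.4% of all genes. They lay wholly below the controls in 1 sterol gene and 4 fatty acid genes, against 12.6% of all genes. These are descriptions of lists chosen with earlier results of these data known, and the difference between the branches was not tested.

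**Figure D1:**
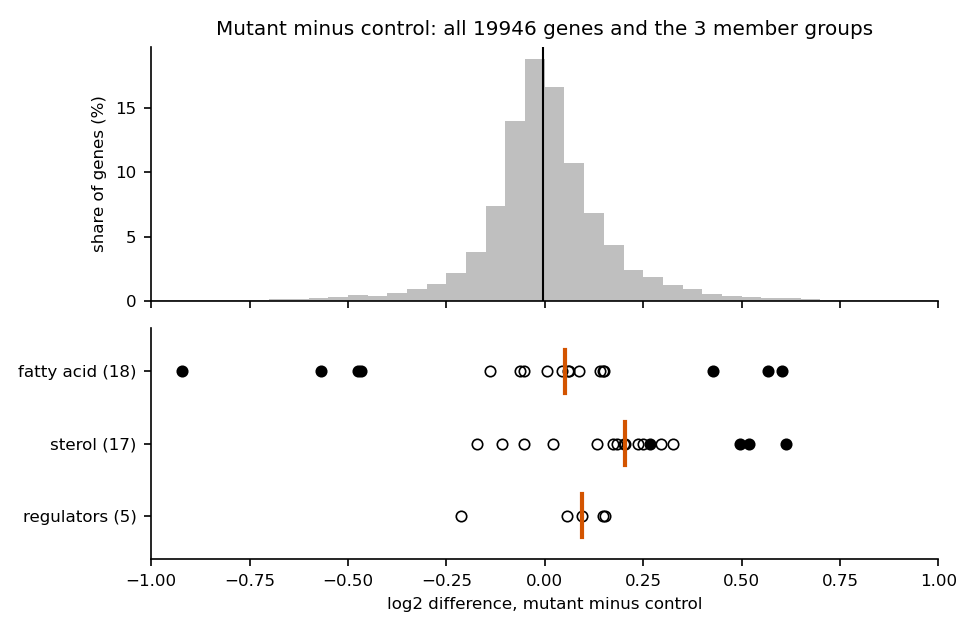
The upper panel is a histogram of the log2 difference (mutant minus control) for all genes within 1 unit of 0, as a share of the 19946 genes tested, with a black line at their median of -0.01. The lower panel gives each measured member as a point, filled where it passed the threshold, with an orange bar at the median of its group, which lies at 0.20 for sterol, 0.05 for fatty acid and 0.09 for regulator genes.

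The sterol pathway opens with the steps to isopentenyl pyrophosphate, in which Hmgcs1, the cytosolic HMG-CoA synthase, rose. It read 10.97, 10.96 and 10.88 in mutants and 10.41, 10.42 and 10.43 in controls. The groups were clearly apart and each was tight, with a mutant minus control value of 0.52 ± 0.05 (SE from limma, n = 3 in each), or 1.43-fold (adjusted p = 0.00109). Mvd, the decarboxylase that ends this stretch, read 8.42, 8.67 and 8.47 in mutants and 8.21, 8.20 and 8.27 in controls. Its groups did not overlap, but the difference of 0.29 ± 0.08 did not pass (adjusted p = 0.0583). The kinases Mvk (0.02) and Pmvk (0.13) overlapped between groups and did not pass.

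Among the enzymes that join the isoprenoid units, Fdps, the farnesyl pyrophosphate synthase, read 10.19, 10.26 and 10.09 in mutants and 9.92, 9.86 and 9.95 in controls. All mutants lay above all controls, with a difference of 0.27 ± 0.06 (adjusted p = 0.0455). This call is marginal. It passed in 5 of 14 alternative settings, and its adjusted p reached 0.18 without control 2. Idi1, the isomerase that feeds it, read 9.76, 10.01 and 9.57 in mutants and 9.41, 9.44 and 9.52 in controls (0.33 ± 0.10, adjusted p = 0.116). The groups were apart, with mutant 3 close to the highest control, and on the other feature of Idi1 they overlapped.

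In the stretch from squalene to lanosterol, Lss, the lanosterol synthase that closes the sterol rings, rose. It read 9.20, 9.03 and 9.20 in mutants and 8.69, 8.62 and 8.63 in controls, a difference of 0.49 ± 0.07 or 1.41-fold (adjusted p = 0.00351). Mutant 2 was the lowest of the mutants here and was still well above the controls. Sqle, the squalene epoxidase, read 10.36, 10.38 and 10.25 in mutants and 10.18, 10.19 and 10.11 in controls (0.17 ± 0.06, adjusted p = 0.146). Its groups did not overlap, by a narrow margin. Fdft1, the squalene synthase, overlapped between groups on the feature used (0.18 ± 0.09, adjusted p = 0.306). On its other feature it read 10.51, 10.75 and 10.53 in mutants and 10.35, 10.42 and 10.43 in controls, without overlap, and did not pass either (0.19, adjusted p = 0.209 over all single-symbol features).

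After lanosterol, Msmo1, the methylsterol monooxygenase that helps strip methyl groups from the ring, had the largest difference of all 40 members upward. It read 9.77, 10.04 and 9.67 in mutants and 9.22, 9.17 and 9.26 in controls, a difference of 0.61 ± 0.10 or 1.53-fold (adjusted p = 0.00698). The mutants were spread more widely than the controls and all lay above them. Dhcr7, the reductase of the final step, read 8.50, 8.79 and 8.60 in mutants and 8.33, 8.40 and 8.40 in controls (0.25 ± 0.08, adjusted p = 0.121). The sterol desaturase gene Sc5d read 9.15, 9.45 and 9.14 in mutants and 9.03, 8.99 and 9.10 in controls (0.20 ± 0.09, adjusted p = 0.257). In both genes the mutants lay above the controls without passing the test.

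Nsdhl, the sterol dehydrogenase that acts beside Msmo1, lay the other way. It read 9.53, 9.62 and 9.58 in mutants and 9.74, 9.79 and 9.71 in controls, and was the only sterol gene with all mutants below all controls (-0.17 ± 0.06, adjusted p = 0.121). Nsdhl and the sterol isomerase gene Ebp are on the X chromosome, and mutant 3 and control 3 were male by Xist and Y-linked genes. The demethylase Cyp51 (0.24), Ebp (0.20), the reductase Hsd17b7 (-0.11) and the sterol carrier Stard4 (-0.05) overlapped between groups. Hsd17b7 read 8.60, 8.89 and 8.33 in mutants 1 to 3 and 8.71, 9.00 and 8.42 in controls 1 to 3. Its spread thus followed the replicate number in both groups, and each mutant lay below the control of the same number. With the replicate as a block in limma it still did not pass (adjusted p = 0.463).

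**Figure D2:**
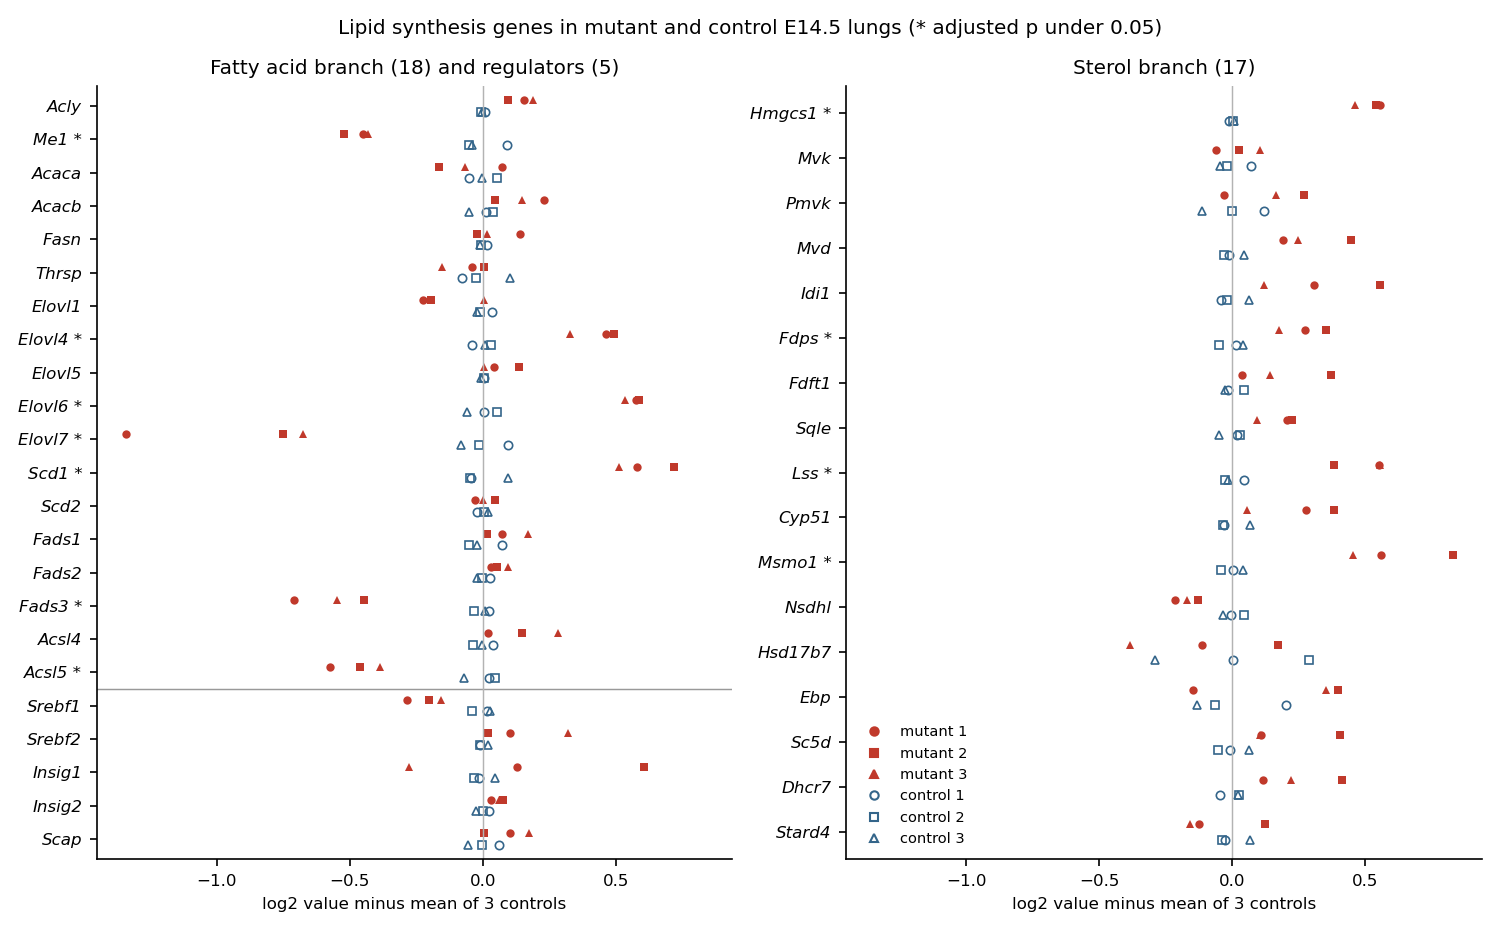
Each measured member is a row, and each point is 1 array's log2 value minus the mean of the 3 controls, with filled red marks for mutants and open blue marks for controls. Shapes give the replicate, and an asterisk marks the 11 members past the threshold. Most red marks of the sterol branch lie right of the controls, while those of the fatty acid branch lie on both sides.

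The promoter windows of the members that moved most are shown because genes of these pathways are classic targets of SREBP, which binds sterol regulatory elements next to the CCAAT-binding factor NF-Y. The sequences are RefSeq windows of build GRCm38.p6, from 250 bases before to 50 after the annotated start, printed 5′ to 3′ along the gene. Of the 40 measured members 33 had an entry, and Fdps and Scd1 were without one. Capitals mark matches on either strand to the sterol regulatory element TCACNCCAC, the NF-Y box CCAAT and the forkhead motif TGTTTAC. No matches overlap one another in these windows. The first 3 belong to the sterol genes Msmo1 (chr8:64733529-64733828, minus strand), Hmgcs1 (chr13:119690101-119690400, plus strand) and Lss (chr10:76531355-76531654, plus strand), all of which rose.
Msmo1: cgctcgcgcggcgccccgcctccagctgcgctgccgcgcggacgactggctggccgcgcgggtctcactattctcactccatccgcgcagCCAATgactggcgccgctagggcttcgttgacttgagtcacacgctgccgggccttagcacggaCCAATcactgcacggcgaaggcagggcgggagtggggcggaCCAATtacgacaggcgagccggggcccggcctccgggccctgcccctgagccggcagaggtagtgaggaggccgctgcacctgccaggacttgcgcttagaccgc
Hmgcs1: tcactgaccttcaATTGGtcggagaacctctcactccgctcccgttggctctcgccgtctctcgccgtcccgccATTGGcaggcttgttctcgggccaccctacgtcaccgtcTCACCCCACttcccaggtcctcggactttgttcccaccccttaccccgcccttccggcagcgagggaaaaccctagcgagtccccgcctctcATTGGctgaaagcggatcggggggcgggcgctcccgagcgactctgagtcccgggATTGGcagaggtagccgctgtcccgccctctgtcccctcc
Lss: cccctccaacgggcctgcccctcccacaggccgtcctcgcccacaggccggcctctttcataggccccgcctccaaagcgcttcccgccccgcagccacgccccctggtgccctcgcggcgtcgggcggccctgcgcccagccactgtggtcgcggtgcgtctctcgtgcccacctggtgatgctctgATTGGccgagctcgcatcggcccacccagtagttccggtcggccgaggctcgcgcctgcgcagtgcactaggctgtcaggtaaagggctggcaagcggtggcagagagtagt
The other 3 belong to the fatty acid branch, namely Elovl7 (chr13:108214154-108214453, plus strand) and Fads3 (chr19:10041298-10041597, plus strand), which fell, and Elovl6 (chr3:129532136-129532435, plus strand), which rose.
Elovl7: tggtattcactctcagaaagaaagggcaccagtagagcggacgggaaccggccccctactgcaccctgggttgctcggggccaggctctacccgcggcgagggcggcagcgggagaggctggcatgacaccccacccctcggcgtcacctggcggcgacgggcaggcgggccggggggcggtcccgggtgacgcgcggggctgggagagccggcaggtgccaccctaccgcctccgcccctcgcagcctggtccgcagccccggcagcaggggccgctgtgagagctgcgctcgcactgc
Fads3: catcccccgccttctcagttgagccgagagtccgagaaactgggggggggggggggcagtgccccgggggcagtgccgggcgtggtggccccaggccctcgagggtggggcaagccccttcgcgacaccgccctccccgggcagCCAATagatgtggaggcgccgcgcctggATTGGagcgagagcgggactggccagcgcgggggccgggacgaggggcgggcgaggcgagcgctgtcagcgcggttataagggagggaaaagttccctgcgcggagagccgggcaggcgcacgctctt
Elovl6: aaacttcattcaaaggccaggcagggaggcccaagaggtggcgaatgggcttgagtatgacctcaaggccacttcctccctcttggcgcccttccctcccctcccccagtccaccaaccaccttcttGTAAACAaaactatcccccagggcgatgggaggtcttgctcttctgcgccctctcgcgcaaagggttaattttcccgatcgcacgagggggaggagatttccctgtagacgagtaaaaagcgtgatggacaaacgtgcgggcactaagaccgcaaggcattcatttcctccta

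The Hmgcs1 window held the sterol regulatory element, 137 bases before the start, and 4 NF-Y boxes. Msmo1 held 3 NF-Y boxes, at 160, 96 and 55 bases before the start, and Lss held 1. Fads3 held 2 NF-Y boxes and Elovl6 a forkhead match 123 bases before the start, while Elovl7 had 0 matches to these letters. At least 1 NF-Y box was found for each of the 13 sterol genes with an entry, in 81.2% of their 16 windows. The share was 58.8% of 17 windows in the fatty acid branch and 37.4% of all 32851 windows. The sterol regulatory element was in 1 of 16 sterol windows and 0 of 17 fatty acid windows, against 1.24% of all windows, and the forkhead motif in 0 of 16 and 1 of 17, against 3.65%. Since all 13 sterol genes with an entry hold the NF-Y box, its presence cannot sort those that rose from those that did not pass. Fdps, which rose, could not be searched. A role of these motifs in the differences was not tested.

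**Figure D3:**
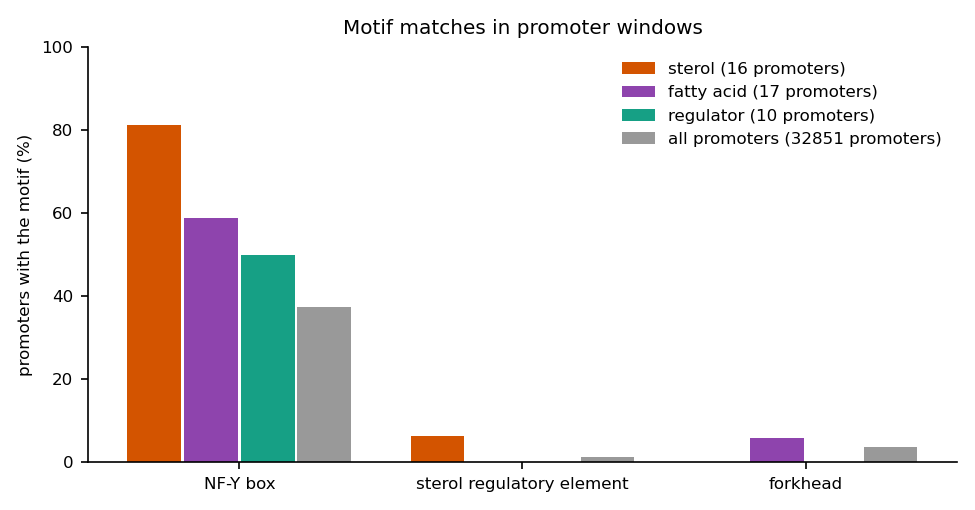
Bars give the percentage of promoter windows with at least 1 match to the NF-Y box, the sterol regulatory element or the forkhead motif, for sterol, fatty acid and regulator genes and for all windows. The NF-Y box stands at 81.2% in the sterol branch and 37.4% over all windows, and the 2 other motifs are rare in every set.

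The size of the sterol difference varied between the mutant embryos. The median of the 17 sterol genes relative to the control mean was 0.12, 0.38 and 0.14 in mutants 1 to 3, and -0.01, -0.02 and 0.01 in controls 1 to 3. Mutant 2 was the highest mutant in 14 of the 17 genes, against 33.4% of all genes. The exceptions were Hmgcs1, highest in mutant 1, and Lss and Mvk, highest in mutant 3. Without mutant 2 the sterol median was 0.15, and 3 sterol genes rose (Hmgcs1, Lss and Msmo1). In the fatty acid branch the same medians were 0.04, 0.03 and 0.01 in mutants and 0.02, -0.01 and -0.01 in controls, and mutant 2 was the highest in 7 of 18 genes.

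**Figure D4:**
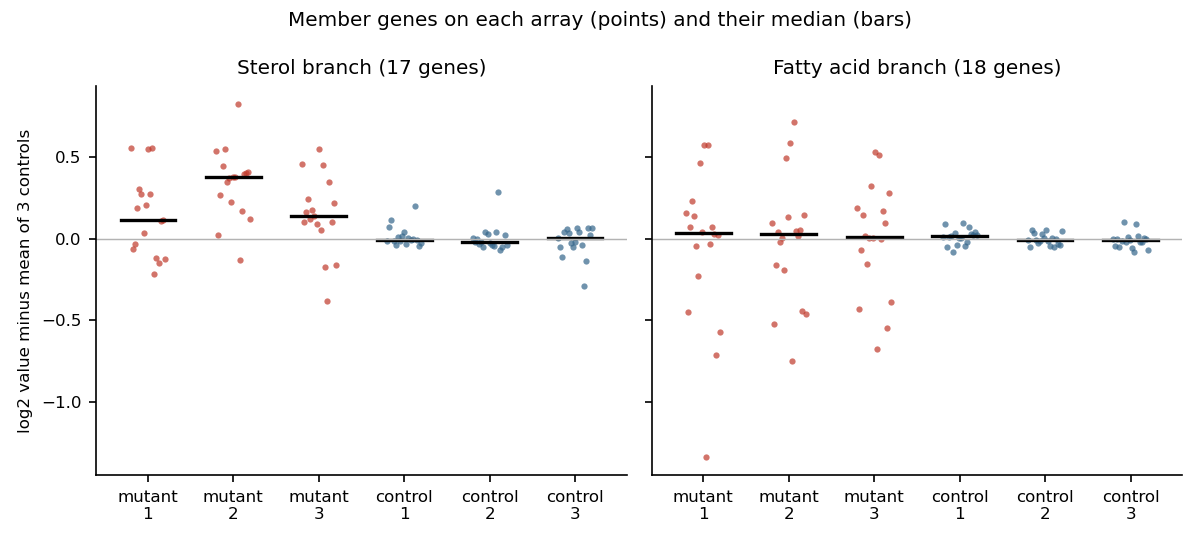
Each point is 1 gene on 1 array, as the log2 value minus the mean of the 3 controls, for the 17 sterol genes (left) and 18 fatty acid genes (right). Black bars are medians. The sterol median stands at 0.38 in mutant 2 and at 0.12 and 0.14 in mutants 1 and 3, while the fatty acid medians stay within 0.04 of 0 in every mutant, with points spread to both sides.

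In the fatty acid branch the central synthesis steps gave no call. Fasn read 10.82, 10.65 and 10.69 in mutants and 10.69, 10.67 and 10.66 in controls (0.04 ± 0.06, adjusted p = 0.777). Acaca (-0.05 ± 0.07) and Thrsp (-0.06 ± 0.07), a regulator of lipogenesis that read below the array median, likewise overlapped between groups. Acly read 10.54, 10.48 and 10.57 in mutants and 10.39, 10.38 and 10.38 in controls. Its mutants lay above its controls (0.15 ± 0.05), but the difference did not pass (adjusted p = 0.168). Acacb, which read 6.96, 6.77 and 6.87 in mutants and 6.74, 6.76 and 6.68 in controls, did not pass either, with groups apart by a narrow margin (0.14 ± 0.07, adjusted p = 0.288). Me1, the malic enzyme that supplies NADPH for synthesis, fell. It read 8.65, 8.58 and 8.67 in mutants and 9.19, 9.05 and 9.06 in controls, a difference of -0.47 ± 0.06 or 1.38-fold lower (adjusted p = 0.00367), and its other feature gave -0.52.

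The elongases moved in opposite directions. Elovl6, which extends palmitate to stearate, read 10.90, 10.91 and 10.86 in mutants and 10.33, 10.38 and 10.27 in controls. This was the smallest adjusted p of all members, at 0.57 ± 0.06 or 1.48-fold (adjusted p = 0.000852), with groups far apart. Elovl4, which makes very long chains, was higher as well, at 8.48, 8.51 and 8.34 in mutants and 7.97, 8.04 and 8.02 in controls (0.43 ± 0.06, adjusted p = 0.00577). Elovl7, an elongase of long saturated chains, read 6.16, 6.75 and 6.82 in mutants and 7.59, 7.48 and 7.41 in controls.

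The Elovl7 difference of -0.92 ± 0.16, or 1.90-fold lower, was the largest of all 40 members in either direction (adjusted p = 0.0122). Mutant 1 was the lowest by a wide gap, and the mutant values lie near or below the array median, where RMA compresses differences. The call ended without control 1 (adjusted p = 0.0604) or control 2 (adjusted p = 0.0508), and without mutant 1 the difference was -0.71 and passed. Elovl1 (-0.14 ± 0.07) and Elovl5 (0.06 ± 0.06), the elongases of saturated and of polyunsaturated chains, did not pass.

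The desaturases also split. Scd1, which puts the first double bond into stearate and palmitate, read 8.91, 9.05 and 8.85 in mutants and 8.29, 8.29 and 8.43 in controls, a rise of 0.60 ± 0.07 or 1.52-fold (adjusted p = 0.00228). Its paralogue Scd2 read 12.23, 12.30 and 12.26 in mutants and 12.24, 12.26 and 12.27 in controls, with overlapping groups (0.01 ± 0.05, adjusted p = 0.972). Whether probes of these similar paralogues share signal was not tested. Fads3 read 9.43, 9.69 and 9.59 in mutants and 10.16, 10.11 and 10.14 in controls, a difference of -0.57 ± 0.07 or 1.48-fold lower (adjusted p = 0.00329). Its relatives Fads1 (0.09 ± 0.07) and Fads2 (0.06 ± 0.05), the front-end desaturases of polyunsaturated fatty acid synthesis on the same chromosome, 19, did not pass. Fads2 read 11.07, 11.09 and 11.13 in mutants and 11.06, 11.03 and 11.01 in controls, so its mutants lay just above its controls.

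Ratios within an array restate this split from the same values, with any shift common to all genes of an array cancelled. A shift that depends on intensity is not cancelled. Scd1 minus Scd2 was -3.32, -3.25 and -3.41 in mutants and -3.95, -3.97 and -3.85 in controls. Fads3 minus Fads2 was -1.64, -1.40 and -1.54 in mutants and -0.90, -0.93 and -0.87 in controls. The groups did not overlap in either ratio, nor in the other 3 of the 5 pairs examined (Fads3 with Fads1, Elovl6 with Elovl5, Srebf2 with Srebf1). Each pair gave p = 0.1 in a two-sided exact permutation test, also after adjustment over the 5 pairs, which is the smallest value that 3 against 3 arrays allow. The pairs were chosen after their values were seen, so these p-values add no support beyond the values themselves.

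Of the acyl-CoA synthetases measured, Acsl5, which activates long-chain fatty acids, fell. It read 9.28, 9.39 and 9.47 in mutants and 9.88, 9.90 and 9.79 in controls, a difference of -0.47 ± 0.07 or 1.39-fold lower (adjusted p = 0.00483). The X-linked Acsl4, which prefers arachidonate, overlapped between groups (0.15 ± 0.07, adjusted p = 0.328).

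**Figure D5:**
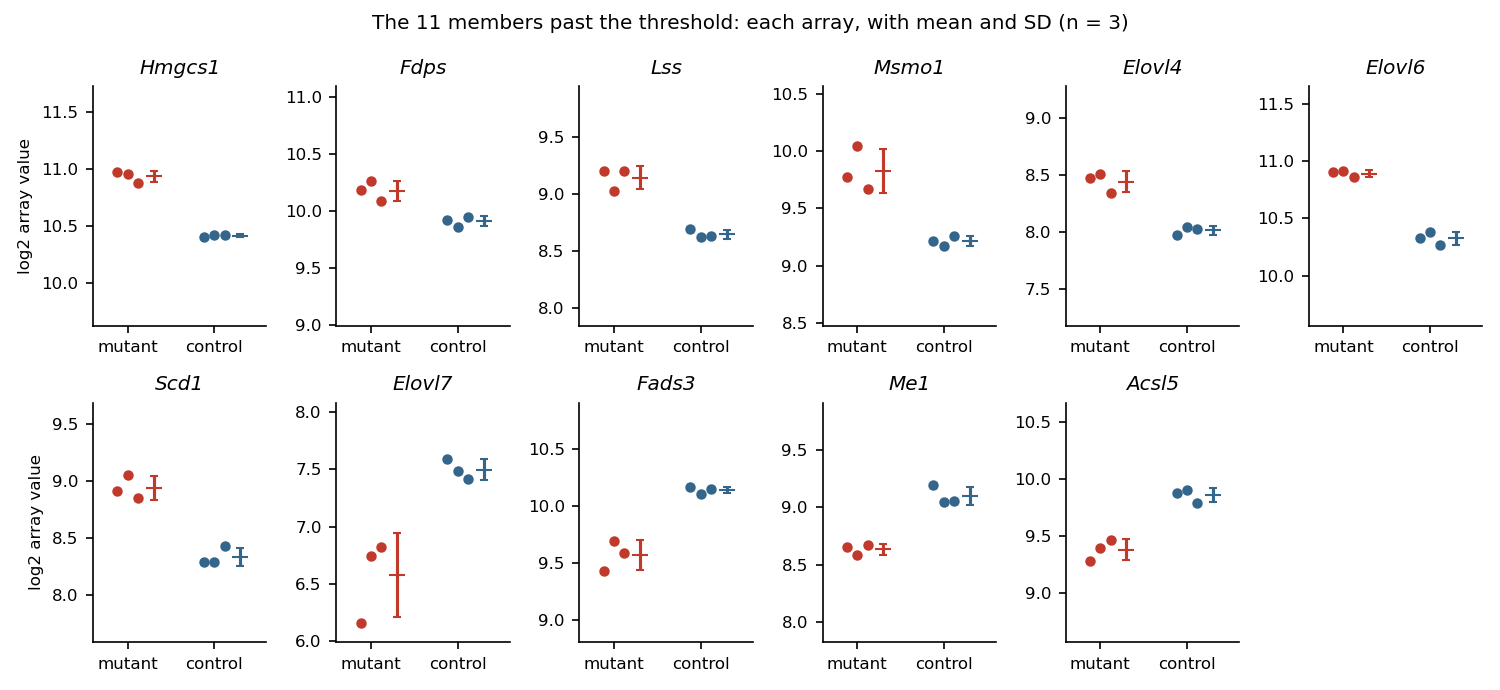
Each panel gives the log2 array value of 1 of the 11 members past the threshold, with mutants (red) left of controls (blue), points for the 3 arrays of each group and a mark with bars for the mean and SD. All panels span the same log2 range. The 4 sterol genes and Elovl4, Elovl6 and Scd1 are higher in mutants, and Elovl7, Fads3, Me1 and Acsl5 are lower.

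None of the 5 regulators passed the threshold, and 1 of them had an unadjusted p under 0.05 in limma. That was Srebf1, which read 8.42, 8.50 and 8.54 in mutants and 8.71, 8.66 and 8.73 in controls (-0.21 ± 0.06, adjusted p = 0.0713). All mutants lay below all controls, and the gene passed when quantile normalization was applied again (adjusted p = 0.0432). Srebf2 lay the other way, at 9.96, 9.88 and 10.18 in mutants and 9.85, 9.85 and 9.88 in controls (0.15 ± 0.08, adjusted p = 0.381), with mutant 2 barely above the controls. The array measures RNA, and SREBP activity depends on cleavage of the protein.

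Insig1, itself a known SREBP target, was the most variable regulator among mutants. It read 9.68, 10.16 and 9.28 in mutants and 9.54, 9.52 and 9.60 in controls (0.15 ± 0.19, adjusted p = 0.752). Mutant 2 was above and mutant 3 below every control. Insig2 read 8.92, 8.97 and 8.95 in mutants and 8.91, 8.89 and 8.87 in controls (0.06 ± 0.05). Scap read 9.61, 9.51 and 9.68 in mutants and 9.57, 9.50 and 9.45 in controls (0.09 ± 0.07). Neither passed the test.

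Of 75 other genes of lipid metabolism measured in 4 lists, 7 passed (9.33%), against 7.66% of all genes. Of 14 measured genes of a further sterol list, Ggps1, which uses farnesyl pyrophosphate to make geranylgeranyl pyrophosphate, rose (0.54 ± 0.10, adjusted p = 0.0122) and Npc2, a lysosomal cholesterol carrier, fell (-0.49 ± 0.07, adjusted p = 0.00433). Ggps1 read 9.43, 9.73 and 9.39 in mutants and 9.04, 8.96 and 8.92 in controls, again highest in mutant 2, and its call ended without control 2 (adjusted p = 0.0562) or control 3 (adjusted p = 0.0632). Of 21 further fatty acid synthesis genes, 1 rose and 1 fell. Elovl2, the elongase of polyunsaturated chains, read 7.91, 8.70 and 7.89 in mutants and 7.39, 7.23 and 7.28 in controls (0.86 ± 0.20, adjusted p = 0.0376). Mid1ip1, a partner of acetyl-CoA carboxylase, was lower (-0.49 ± 0.12, adjusted p = 0.047). Without control 1, control 2 or control 3 the adjusted p reached 0.133 for Elovl2 and 0.17 for Mid1ip1, and the Mid1ip1 call also ended without mutant 1 (adjusted p = 0.0914) or mutant 3 (adjusted p = 0.13).

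Of 23 genes of glycerolipid and phospholipid synthesis, 1 rose and 2 fell, with a median of -0.03. Lpcat1, which remodels the phosphatidylcholine of surfactant, read 9.96, 9.99 and 10.07 in mutants and 10.50, 10.46 and 10.46 in controls (-0.47 ± 0.06, adjusted p = 0.00194). Its groups were far apart. The acyltransferase Gpam (-0.26 ± 0.06, adjusted p = 0.0498) and the phosphatidate phosphatase Lpin1 (0.28 ± 0.07, adjusted p = 0.0382) each passed in only 1 of 6 settings that left out an array. Of 17 fatty acid oxidation genes 0 passed in limma and 2 had an unadjusted p under 0.05, namely Acadm (-0.20 ± 0.06, adjusted p = 0.0944) and Cpt1a (-0.38 ± 0.13, adjusted p = 0.138).

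Markers of several cell types moved as well. Of 12 distal lung epithelium markers 9 fell and 0 rose, and their summed linear level was 2823 to 2893 in mutants and 9436 to 9852 in controls. Of 16 pan-epithelial markers 9 fell and 0 rose (9152 to 11234 in mutants, 14210 to 14835 in controls). Smooth muscle markers fell in 6 of 10 and rose in 1 (6077 to 7235 in mutants, 11343 to 11633 in controls), and macrophage markers rose in 3 of 9 and fell in 0 (2236 to 2723 in mutants, 1950 to 2281 in controls). Of 9 red cell markers listed, 6 were measured and 3 of these fell (4289 to 5979 in mutants, 5843 to 8335 in controls). The globin genes Hbb-y (-0.14) and Hbb-bh1 (0.21) overlapped between groups and did not pass. Of 12 fat cell markers 0 passed in limma and 2 had an unadjusted p under 0.05 (1129 to 1174 in mutants, 1141 to 1261 in controls). Of 12 liver cell markers 1 rose and 1 fell (794 to 864 in mutants, 775 to 826 in controls). Only 4 of the fat cell and 3 of the liver cell markers had a control mean above the array median. These 2 lists therefore do not show that such cells were present. The part of the marker shifts in the falls of Elovl7, Fads3, Me1 and Acsl5, and in the sterol rises, was not tested. Of 18 heart muscle markers 0 passed in limma and 0 had an unadjusted p under 0.05. Their summed level was 10664 in mutant 1, 2451 and 2331 in mutants 2 and 3, and 4340 to 4494 in controls. This wide spread among mutants limits the test, so the counts do not show an unchanged heart level. Actc1 weighed heavily in the sum, at 11.37, 8.70 and 8.61 in mutants 1 to 3 and 10.98, 11.08 and 10.88 in controls. The median of the 18 markers relative to the control mean was 1.18, -0.19 and -0.17 in mutants 1 to 3. The gap in the sum between controls and mutants 2 and 3 therefore lies largely in Actc1. Without mutant 1, the array with the high heart level, 7 members rose, with Mvd in place of Fdps, and 4 fell.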

How the data were processed

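RNA of 6 whole lungs, 3 mutant and 3 control, had been hybridised to single-colour Affymetrix arrays, after oligo(dT) priming and linear amplification per the labels' protocols. The deposited log2 values were made by the authors with oligo and the robust multi-array average (RMA), and limma is named as well, per the submitters' processing notes. Their versions and options are not recorded in those notes. RMA pulls dim features toward a floor, so their differences are low estimates. Arrays carry no counts, and the number of embryos limits the precision.

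Of 35556 features in the table, 21797 carry 1 gene symbol. Each gene was given its brightest feature, and names and chromosomes came from RefSeq GRCm38.p6 by Entrez identifier. Mutant and control values of 19946 genes were compared by the two-sided moderated test of limma 3.58.1 under R 4.3.3 (genotype alone, 7.96 moderated degrees of freedom) with Benjamini-Hochberg adjustment over all genes. P-values measure the spread between embryos, whose litters are not given. Members, branches, further lists and motifs were chosen with earlier results of these data known. Text covers every member: those past the threshold, those whose groups do not overlap and the regulators with values, others by difference. Of each further list up to 4 called genes are named, or the 2 with the smallest p. Sequences were taken for the 3 called genes per branch with the largest differences and a promoter entry. Alternatives were repeated quantile normalization, median centring, a filter on dim genes (the lower 1 of every 3 by average), testing all single-symbol features, averaging a gene's features, trended robust moderation (statmod 1.5.0), the replicate block, embryo sex and each array left out.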

Additional observations from a re-analysis of the deposited data

How the results depend on the processing

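Over 14 alternative settings the 40 members gave 559 comparisons with the reported calls, of which 544 had the same call, 11 lost one and 4 gained one, and 0 called members changed direction. The losses were those of Fdps in 9 settings and Elovl7 in 2. The gains were Srebf1 with repeated quantile normalization, Mvd without mutant 1 (adjusted p = 0.0392), and Idi1 and Cyp51 without mutant 3 (adjusted p 0.0384 and 0.0423). Rises in the sterol branch numbered 3 to 6 and its median difference lay between 0.15 and 0.26 with single arrays left out, with 6 rises without mutant 3. The median of the fatty acid branch was 0.0298 when arrays were centred on their median, against 0.0523, and 0.04 to 0.06 with single arrays left out. The count over all genes was 1528, with 765 higher and 763 lower in mutants, against 572 higher and 760 lower with arrays centred on their median and 667 higher and 865 lower with repeated quantile normalization. It was 876, 793 and 774 without control 1, control 2 and control 3. After each gene's group mean was removed, same-numbered mutant and control arrays correlated at -0.07, 0.05 and 0.15. These values cannot decide whether replicate numbers pair the embryos, whose litters are not given. Sex matched by number, with mutant 3 and control 3 male and the others female. With the replicate block 6 members rose, 4 fell, 3 of the rises were sterol genes, and 1137 genes passed in all. The block left the branch medians at 0.20 and 0.05. Signal near or below the array median limits what can be seen for Thrsp, for Acacb and for Elovl7 in mutants.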
